A study of Mus musculus with 15 samples.

Results

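The 10 genes described here encode proteins that coat, fuse, build or guard lipid droplets, or act as enzymes on them: the perilipins Plin2, Plin3, Plin4 and Plin5, the CIDE proteins Cidea, Cideb and Cidec, the lipase inhibitor G0s2, the droplet-forming protein Fitm2 and the droplet enzyme Hsd17b13. They were chosen by symbol, and all 10 were found among the 23420 genes of the count tables. PolyA RNA was sequenced from the left lobe of livers of male mice of the inbred strain C57Bl/6J. The MCD mice ate 31% fat in a diet lacking methionine, choline and folate, the HFD mice ate 31% fat with these nutrients, and the BD mice ate a base diet with 4% fat. Each diet had 5 libraries. All mice, on every diet, had received the vehicle alone (5% Alkmauls El-620 in saline), 24 h before sampling, so tetrachloroethylene, the solvent the series is about, was given to none of these libraries. The sources used here do not give ages, the time on diet or whether each library was 1 animal, so the p-values speak of the spread among these libraries, which may be technical.

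A lipid droplet is a core of triglyceride and sterol ester inside a phospholipid monolayer. Hepatocytes fill with droplets when fat supply exceeds oxidation and export. Perilipins cover the surface and limit access of lipases, CIDE proteins gather at contacts between droplets and pass lipid from the smaller to the larger, and a fatty liver is known to gain adipocyte-type droplet proteins under the nuclear receptor PPAR gamma, while Plin2 responds to PPAR alpha. RNA levels say nothing of the amount of protein, and Plin2 protein in particular is known to be degraded when it is not bound to a droplet.

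The libraries held 3704642 to 23131089 gene counts (median 10312311). Levels are given as CPM, the counts of a gene relative to the scaled library total, and 3 counts, the limit that a count of 0 allows, came to 0.118 to 0.851 CPM (counting error only). Hepatocyte markers were not called between any pair of diets (3 of 5 had an unadjusted edgeR p under 0.05 in MCD against BD, 1 in HFD against BD and 0 in MCD against HFD, and 1 was called by DESeq2 and by limma-voom, in MCD against BD). HFD replicate 2 stood apart from the other HFD libraries in Plin4, Cidea, Cidec and Hsd17b13. It had the highest HFD value of 7 of the 10 genes, but by small margins in Plin2, G0s2 and Fitm2. The share of all genes that were highest in that library was not counted. The edgeR fold changes of Plin4, Cidec and Hsd17b13 that involve HFD are given with and without HFD replicate 2. Its high values of these genes were known when it was left out. Leaving it out lowers their HFD means by construction, so those fits are descriptions. Fold changes in HFD of genes outside the 10 include it throughout. The title numbers of the BD samples lie at least 66 above those of all others, so the base diet and any batch in line of numbering cannot be told apart. In such bulk samples, fewer cells of a type and less RNA per cell cannot be told apart.

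Upstream sequences are shown for 4 of the 5 genes that rose in MCD against BD: Plin2 and Hsd17b13, the most abundant in CPM, and Plin4 and Cidec, with the largest fold changes. Each is 300 bases, 250 before to 50 after the annotated start, on the minus strand of GRCm38.p6, from RefSeq. They lie at chr4:86670010-86670309 for Plin2, chr17:56109733-56110032 for Plin4, chr6:113435711-113436010 for Cidec and chr5:103977339-103977638 for Hsd17b13. Capitals mark the nuclear receptor core hexamer AGGTCA, a direct repeat of it 1 base apart (AGGTCANAGGTCA, up to 2 mismatches, any overlap with the hexamer counted for both) or the E-box CACGTG, on either strand.
Plin2: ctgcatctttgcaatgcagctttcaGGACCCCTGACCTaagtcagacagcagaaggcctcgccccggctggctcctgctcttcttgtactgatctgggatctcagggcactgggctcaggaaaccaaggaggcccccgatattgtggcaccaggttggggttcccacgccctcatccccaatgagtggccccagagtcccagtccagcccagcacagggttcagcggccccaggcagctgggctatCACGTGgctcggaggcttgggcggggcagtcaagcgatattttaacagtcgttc
Plin4: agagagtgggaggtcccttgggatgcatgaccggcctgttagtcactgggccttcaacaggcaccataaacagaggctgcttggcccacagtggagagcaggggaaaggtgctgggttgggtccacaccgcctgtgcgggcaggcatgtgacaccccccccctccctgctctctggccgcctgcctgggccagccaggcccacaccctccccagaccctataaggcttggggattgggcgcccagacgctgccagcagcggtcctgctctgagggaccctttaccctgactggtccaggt
Cidec: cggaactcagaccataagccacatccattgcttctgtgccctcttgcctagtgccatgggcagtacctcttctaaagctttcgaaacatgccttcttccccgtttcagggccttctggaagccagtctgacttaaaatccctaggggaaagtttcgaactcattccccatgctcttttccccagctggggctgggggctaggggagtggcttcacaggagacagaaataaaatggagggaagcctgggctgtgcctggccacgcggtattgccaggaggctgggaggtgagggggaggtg
Hsd17b13: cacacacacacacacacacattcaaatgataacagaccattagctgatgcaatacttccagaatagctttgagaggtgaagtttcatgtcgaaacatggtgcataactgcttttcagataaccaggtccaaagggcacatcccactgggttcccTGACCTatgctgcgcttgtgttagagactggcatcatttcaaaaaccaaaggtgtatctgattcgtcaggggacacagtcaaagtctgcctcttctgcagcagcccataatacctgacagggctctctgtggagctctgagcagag
The hexamer lies 96 bases before the start of Hsd17b13 and 218 bases before the start of Plin2. In Plin2 it is part of the direct repeat match GGACCCCTGACCT, which begins 225 bases before the start and has 2 mismatches. An E-box there begins 4 bases before the start and spans it. Promoter windows of 9 of the 10 genes were searched, 11 windows in all because Cidec and Plin5 have 2 starts each. The hexamer occurred in 4 windows (of Plin2, Hsd17b13 and both of Plin5), and the direct repeat and the E-box each in 1, that of Plin2. Of 32817 mouse promoter windows of the same length, 16.3% hold the hexamer, 3.86% the direct repeat match and 7.15% the E-box. These are matches of letters.

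Of the 10 genes, 9 passed the filter on low counts, each with at least 1.28 CPM in every library, and Cidea did not. Calls rest on edgeR's quasi-likelihood test with Benjamini-Hochberg adjustment over the 12193 genes tested, at 0.05, and adjusted p are from that test unless another tool is named. In MCD against BD, 5 of the 9 tested genes rose (Plin2, Plin3, Plin4, Cidec and Hsd17b13), where 12.8% of all genes were called higher and 21.4% in either direction. The MCD and BD values of these 5 genes did not overlap, which held upward for 9.32% of all genes. In HFD against BD, 2 of 9 rose (Plin2 and Fitm2), where 3.65% of all genes were called higher and 6.92% in either direction, and these were the 2 without overlap (3.49% of all genes, upward). In MCD against HFD, edgeR called 0 of 9, where 3.15% of all genes were called. There 2 genes, Plin4 and Hsd17b13, had an unadjusted p under 0.05 (19.9% of all genes), and DESeq2 and limma-voom called 0 as well. Unadjusted p were under 0.05 for 6 of 9 in MCD against BD (33.3% of all genes) and 5 of 9 in HFD against BD (20.2%). The median log2 fold change of the 9 genes was 0.57 in MCD against BD, 0.74 in HFD against BD and -0.05 in MCD against HFD, while that of all genes tested was -0.03, -0.01 and -0.0032. The comparisons share their libraries in pairs and are not independent. DESeq2 called 4 of the genes in HFD against BD (Cidec and Plin4 beside Plin2 and Fitm2), and 1116 of all genes. Without HFD replicate 2, edgeR called 3 in MCD against HFD (Plin4, Cidec and Hsd17b13). Over all genes edgeR called 1248 there, and 384 with all libraries. HFD replicate 2 held the highest HFD values of these 3 genes and was left out with those values known, so the 3 calls are no separate support.

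**Figure D1:**
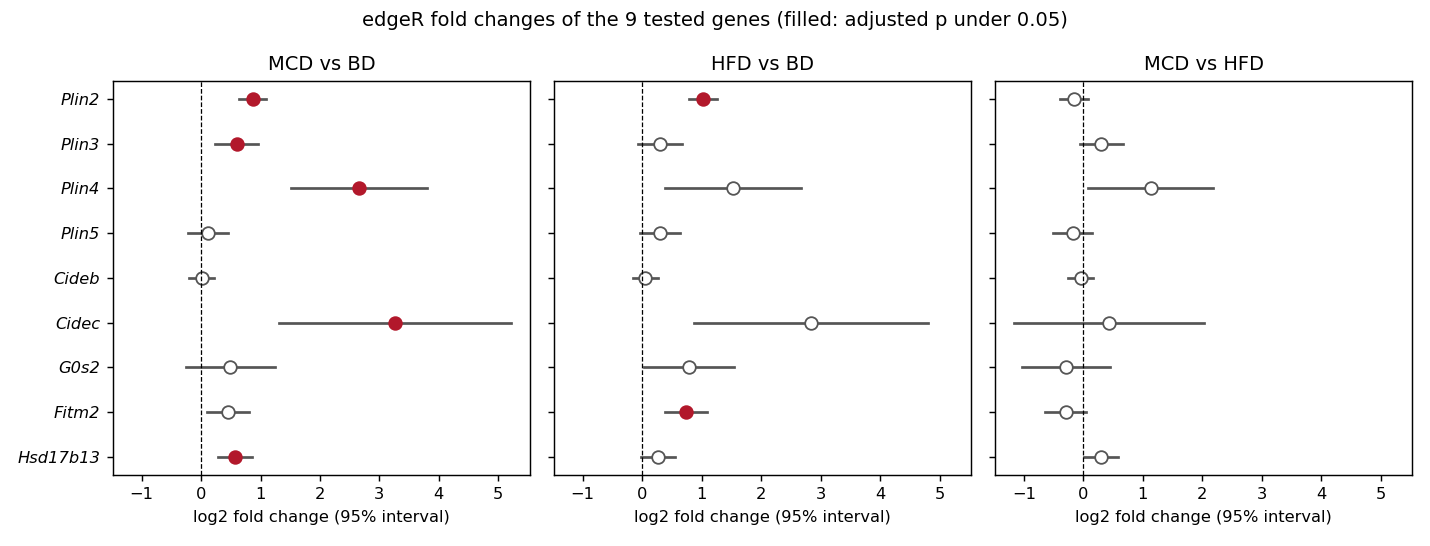
Log2 fold changes (x axis) of the 9 tested genes (y axis) with 95% intervals in MCD against BD, HFD against BD and MCD against HFD, from 1 edgeR fit over 15 libraries, with filled points for adjusted p under 0.05. Plin2 is filled in both comparisons with BD, and Plin4 and Cidec have the widest intervals.

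Plin2, the main perilipin of hepatocytes, rose on both 31% fat diets. It lies at chr4:86648386-86670060 (GRCm38, minus strand, 8 exons). In CPM, Plin2 had 968, 831, 823, 783 and 757 in MCD replicates 1 to 5, 1011, 1025, 964, 848 and 780.4 in HFD replicates 1 to 5 and 523, 448, 509, 360.0 and 445 in BD replicates 1 to 5. Plin2 averaged 832 ± 81.5 CPM in MCD, 926 ± 107 in HFD and 457 ± 64.5 in BD (SD, n = 5). Every library of both 31% fat diets lay above every BD library, and the MCD and HFD ranges overlapped. Plin2 rose by 0.87 ± 0.11 in MCD against BD and by 1.02 ± 0.11 in HFD against BD (log2, SE, adjusted p = 4.72e-05 and 1.16e-05). Both calls were kept in each of 25 alternatives run, with log2 fold changes of 0.80 to 1.01 in MCD and 0.95 to 1.08 in HFD. Between MCD and HFD the log2 difference was -0.15 (95% interval -0.39 to 0.08, adjusted p = 0.461), so a difference of the size seen against BD lies outside this interval.

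Plin3, a perilipin that moves between cytosol and small, young droplets, rose in MCD. It lies at chr17:56277476-56292873. In CPM, Plin3 had 74.9, 63.7, 68.4, 62.8 and 57.2 in MCD replicates 1 to 5, 70.5, 68.9, 39.5, 38.3 and 47.3 in HFD replicates 1 to 5 and 46.2, 42.7, 45.8, 51.4 and 30.7 in BD replicates 1 to 5. Plin3 averaged 65.4 ± 6.64 CPM in MCD, 52.9 ± 15.7 in HFD and 43.4 ± 7.75 in BD (SD, n = 5). All MCD libraries lay above all BD libraries, and HFD replicates 1 and 2 stood with MCD while HFD replicates 3, 4 and 5 stood with BD. Plin3 rose by 0.60 ± 0.17 in MCD against BD (log2, SE, adjusted p = 0.0179). That call ended when each library's rate of multiply placed reads was a covariate (0.32, adjusted p = 0.120) and when all libraries were thinned to the depth of the shallowest (0.47, adjusted p = 0.0873). The rate was 1.19 to 1.66 in MCD and 1.49 to 2.80 in BD, so this covariate and diet cannot be fully told apart. In HFD against BD the log2 difference was 0.30 (95% interval -0.06 to 0.67, adjusted p = 0.366), and in MCD against HFD it was 0.30 (95% interval -0.06 to 0.66, adjusted p = 0.332).

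Plin4, a long perilipin best known from adipocytes, where it coats nascent droplets, had one of the largest differences. Its gene lies at chr17:56100591-56109803, 1797 bases from Plin5 (chr17:56111601-56117596) on the same strand, with Plin3 159879 bases beyond Plin5. In CPM, Plin4 had 112, 48.3, 42.5, 104 and 67.9 in MCD replicates 1 to 5, 20.1, 91.6, 17.3, 14.8 and 26.5 in HFD replicates 1 to 5 and 8.51, 16.8, 14.6, 8.38 and 9.99 in BD replicates 1 to 5. Plin4 averaged 75.0 ± 31.8 CPM in MCD, 34.1 ± 32.5 in HFD and 11.7 ± 3.84 in BD (SD, n = 5). The MCD libraries spread widely, with replicates 1 and 4 high and replicates 2 and 3 low, yet all lay above all BD libraries. In HFD, replicate 2 lay within the MCD range and the other 4 lay below it. Plin4 rose by 2.66 ± 0.53 in MCD against BD (log2, SE, adjusted p = 0.00313), with a value of 1.82 under the multi-mapping covariate (adjusted p = 0.0142). In HFD against BD it stood at 1.53 ± 0.53 (adjusted p = 0.114), with 0.72 without HFD replicate 2 (adjusted p = 0.259) and a call by DESeq2 (adjusted p = 0.0267). In MCD against HFD it stood at 1.13 ± 0.49 (adjusted p = 0.218), and at 1.96 without HFD replicate 2 (adjusted p = 0.00209). Plin4 overlaps Hdgfl2 on the opposite strand, and no source used here gives the strand setting of the counting: the part of reads from that gene was not tested.

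Plin5, which ties droplets to mitochondria in tissues that burn fat, passed the test in none of the 3 comparisons. In CPM, Plin5 had 38.8, 34.5, 33.6, 28.9 and 37.0 in MCD replicates 1 to 5, 49.2, 48.4, 33.6, 30.8 and 32.9 in HFD replicates 1 to 5 and 26.7, 35.8, 38.8, 34.5 and 23.2 in BD replicates 1 to 5. Plin5 averaged 34.6 ± 3.80 CPM in MCD, 39.0 ± 9.04 in HFD and 31.8 ± 6.56 in BD (SD, n = 5). The 3 ranges overlapped. Its log2 differences were 0.12 in MCD against BD (95% interval -0.21 to 0.45, adjusted p = 0.637), 0.30 in HFD against BD (95% interval -0.04 to 0.63, adjusted p = 0.320) and -0.18 in MCD against HFD (95% interval -0.50 to 0.15, adjusted p = 0.560). Plin1, the perilipin of the adipocyte, is not among the 10 genes and had 1 count in all over the 15 libraries.

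**Figure D2:**
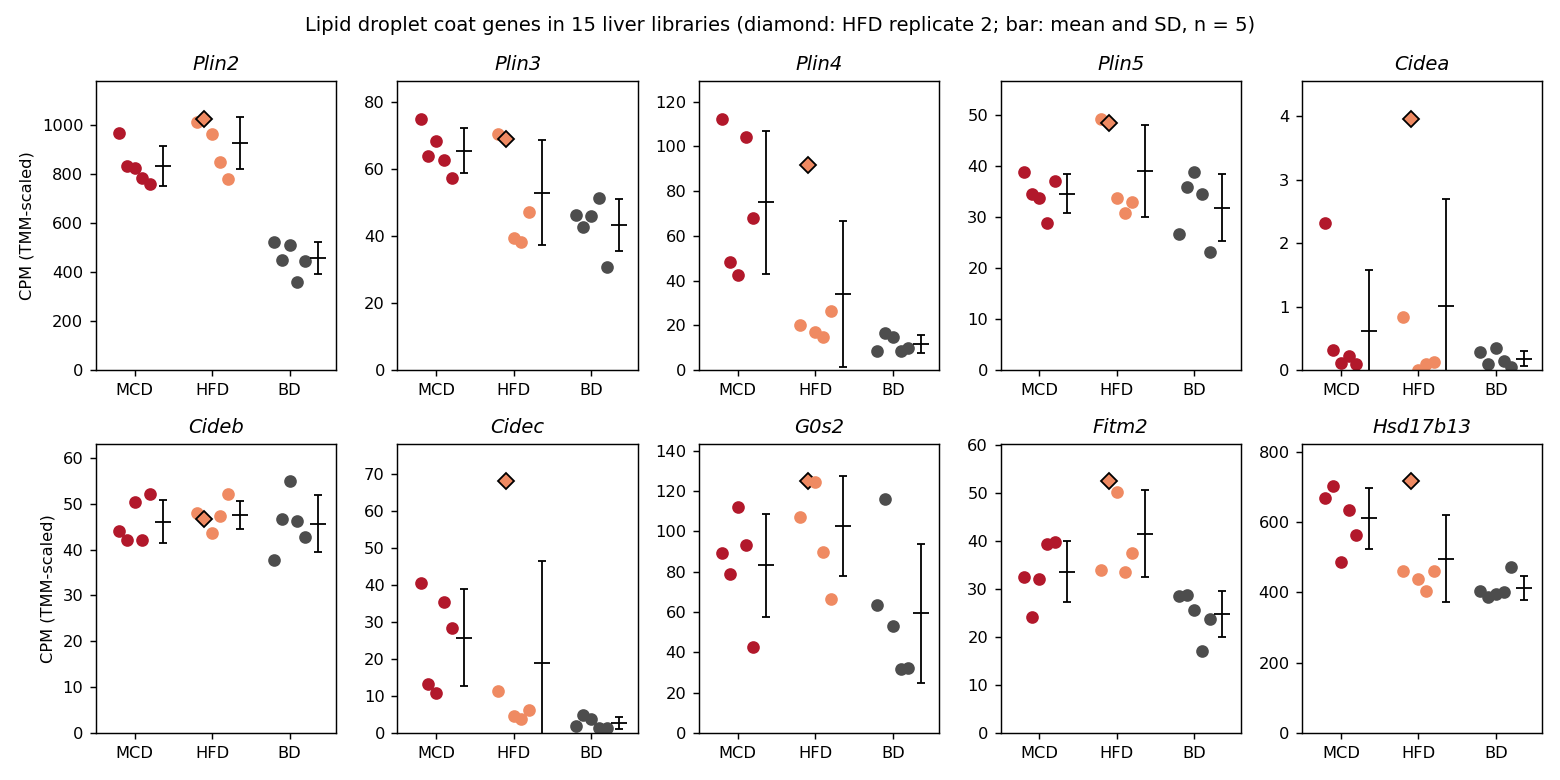
CPM (y axis, from 0, TMM-scaled) of each of the 10 genes in the 5 libraries of MCD, HFD and BD (x axis), with the diamond for HFD replicate 2 and a bar for mean and SD (n = 5), which is cut off at 0 where the SD exceeds the mean. Plin2 separates both 31% fat diets from BD, while Plin4, Cidec, Cidea and Hsd17b13 show HFD replicate 2 far above the other HFD libraries.

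Per kilobase of transcript, Plin2 led the perilipins in every library. In CPM per kilobase, Plin2 averaged 441 ± 43.2 in MCD, 490.3 ± 56.6 in HFD and 242 ± 34.2 in BD (SD, n = 5). Its share of the summed level of Plin2 to Plin5 was 89.3% to 91.1% in MCD, 90.2% to 94.3% in HFD and 85.3% to 91.5% in BD. The share of Plin4 had a median of 2.64% in MCD (1.54% to 3.89%), 0.598% in HFD (0.538% to 2.64%) and 0.674% in BD (0.486% to 1.08%), so that all MCD libraries lay above all BD libraries. The share of Plin5 was 3.13% to 4.17% in MCD, 3.13% to 4.25% in HFD and 4.41% to 7.77% in BD, below every BD library on both 31% fat diets, while its own level was not called. These shares are descriptions without a test, and they rest on the longest coding transcript of each gene, which the counting may not have used.

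The CIDE family was split. Cideb, the CIDE protein normally made by hepatocytes, where it serves the lipidation of very low density lipoprotein, passed the test in none of the 3 comparisons. In CPM, Cideb had 44.1, 42.0, 50.4, 42.1 and 52.1 in MCD replicates 1 to 5, 48.0, 46.6, 43.6, 47.4 and 52.1 in HFD replicates 1 to 5 and 37.7, 46.7, 54.9, 46.2 and 42.8 in BD replicates 1 to 5. Cideb averaged 46.1 ± 4.76 CPM in MCD, 47.5 ± 3.09 in HFD and 45.7 ± 6.27 in BD (SD, n = 5). The 3 ranges overlapped, and Cideb had the smallest log2 differences from BD of the 9 tested genes, in MCD and in HFD. Its log2 differences were 0.01 in MCD against BD (95% interval -0.20 to 0.22, adjusted p = 0.969), 0.05 in HFD against BD (95% interval -0.16 to 0.27, adjusted p = 0.833) and -0.05 in MCD against HFD (95% interval -0.25 to 0.16, adjusted p = 0.844). Cideb lies at chr14:55754050-55758458 and overlaps Nop9 on the opposite strand.

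Cidec, also known as Fsp27, the protein that merges droplets into the large ones of white fat, had the largest fold change of the 9 tested genes. It lies at chr6:113424634-113435760. In CPM, Cidec had 40.5, 13.4, 10.9, 35.3 and 28.5 in MCD replicates 1 to 5, 11.3, 68.1, 4.50, 3.81 and 6.33 in HFD replicates 1 to 5 and 1.99, 4.95, 3.70, 1.28 and 1.37 in BD replicates 1 to 5. Cidec averaged 25.7 ± 13.1 CPM in MCD, 18.8 ± 27.7 in HFD and 2.66 ± 1.61 in BD (SD, n = 5). All MCD libraries lay above all BD libraries, with the same MCD replicates low (2 and 3) as for Plin4. The highest value of all stood in HFD replicate 2, HFD replicates 3 and 4 lay within the BD range, and HFD replicates 1 and 5 lay above it, replicate 1 at the low end of MCD. Cidec rose by 3.27 ± 0.90 in MCD against BD (log2, SE, adjusted p = 0.0209). The call ended without BD replicate 5 (3.00, adjusted p = 0.0516), the value was 1.71 under the multi-mapping covariate (adjusted p = 0.0466), and it was 3.92 after thinning (adjusted p = 0.0388). Over 5 libraries, Cidec had 2250 counts in MCD, 1001 in HFD and 136 in BD. In HFD against BD it stood at 2.84 ± 0.91 (adjusted p = 0.0873), and at 1.30 without HFD replicate 2 (adjusted p = 0.239), both by edgeR. With all libraries, the Cidec value in HFD against BD passed with DESeq2 (2.83, adjusted p = 0.00541), non-robust estimation (adjusted p = 0.0319) and the multi-mapping covariate (1.87, adjusted p = 0.0361), and did not pass with limma-voom (2.09, adjusted p = 0.304). The MCD against HFD value was 0.43 (95% interval -1.16 to 2.02, adjusted p = 0.795), and 1.99 without HFD replicate 2 (adjusted p = 0.0214).

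Cidea, the brown fat member, which mouse liver is known to gain in steatosis, was near the detection limit. Its counts in replicates 1 to 5 were 59, 3, 2, 4 and 1 in MCD, 10, 42, 0, 2 and 1 in HFD, and 1, 1, 4, 1 and 1 in BD. In CPM, Cidea had 2.32, 0.311, 0.112, 0.230 and 0.101 in MCD replicates 1 to 5, 0.843, 3.96, 0, 0.0965 and 0.135 in HFD replicates 1 to 5 and 0.284, 0.103, 0.345, 0.142 and 0.0471 in BD replicates 1 to 5. Cidea averaged 0.615 ± 0.956 CPM in MCD, 1.01 ± 1.69 in HFD and 0.184 ± 0.125 in BD (SD, n = 5). In 3 of the 15 libraries it had 10 or more counts, MCD replicate 1 and HFD replicates 1 and 2, and in 10 it had 3 or fewer. It did not pass the filter and was not tested. With no filter on low counts, edgeR gave adjusted p = 0.375 in MCD against BD, 0.402 in HFD against BD and 0.827 in MCD against HFD. HFD replicate 2 and MCD replicate 1 thus held the highest values of HFD and MCD for both Cidea and Cidec.

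**Figure D3:**
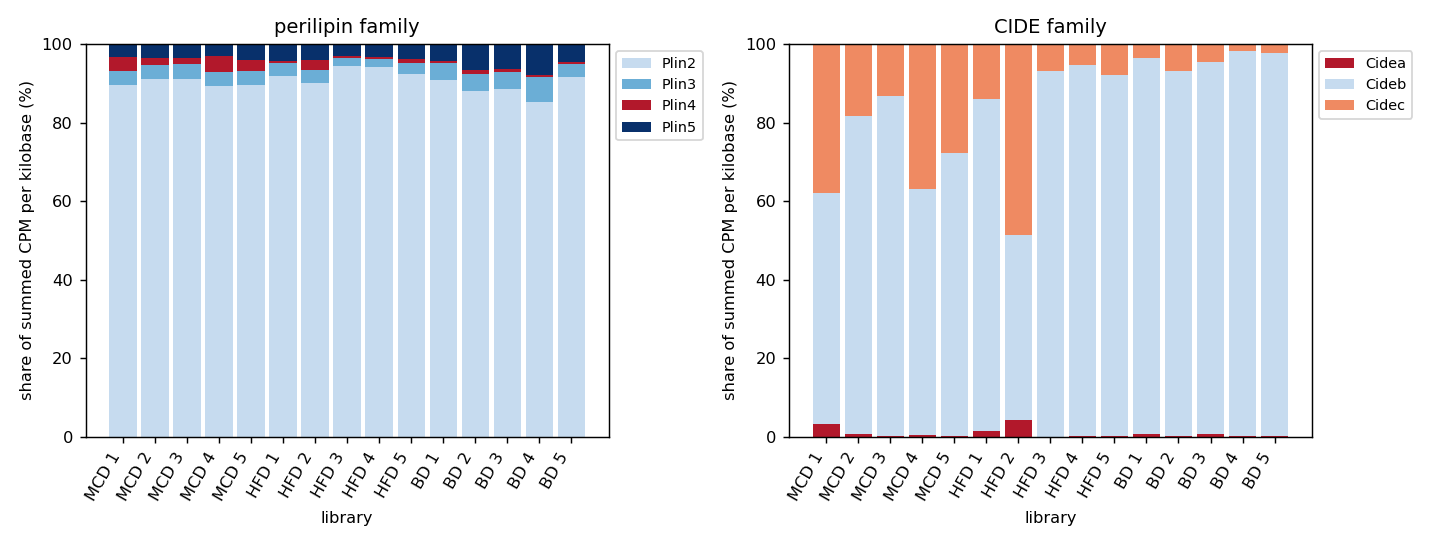
Share (y axis, %) of the summed CPM per kilobase of transcript that each perilipin (left) and each CIDE gene (right) held in each of the 15 libraries (x axis, MCD, HFD and BD). Plin2 holds 85.3% or more of the perilipin sum in every library, while Cidec holds 13.2% to 38.0% of the CIDE sum in MCD, 5.35% to 48.5% in HFD and 1.91% to 6.93% in BD.

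In the CIDE sum per kilobase, Cideb held 58.7% to 86.6% in MCD, 47.1% to 94.4% in HFD and 92.8% to 97.8% in BD. Cidec held a median of 27.8% in MCD, 7.86% in HFD and 3.55% in BD. In HFD replicate 2 Cidec and Cideb were about even, with 48.5% and 47.1%.

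G0s2, a small protein that blocks the lipase Pnpla2 (ATGL), passed the test in no comparison. In CPM, G0s2 had 89.0, 78.8, 112, 93.0 and 42.4 in MCD replicates 1 to 5, 107, 125, 124, 89.9 and 66.3 in HFD replicates 1 to 5 and 63.5, 116, 53.2, 32.0 and 32.0 in BD replicates 1 to 5. G0s2 averaged 83.1 ± 25.7 CPM in MCD, 102 ± 24.8 in HFD and 59.4 ± 34.6 in BD (SD, n = 5). BD replicate 2 stood above all 5 MCD libraries and 3 of the 5 HFD libraries, and all 3 ranges overlapped. The log2 difference was 0.49 in MCD against BD (95% interval -0.26 to 1.24, adjusted p = 0.350), 0.79 in HFD against BD (95% interval 0.03 to 1.54, adjusted p = 0.223) and -0.30 in MCD against HFD (95% interval -1.04 to 0.44, adjusted p = 0.675). Without BD replicate 2 both comparisons with BD passed, at 0.90 in MCD (adjusted p = 0.0433) and 1.20 in HFD (adjusted p = 0.0259). G0s2 (chr1:193272161-193273217) lies on the strand opposite to Lamb3, which it overlaps.

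Fitm2, a protein of the endoplasmic reticulum that is needed for droplets to bud into the cytosol, rose in HFD. It lies at chr2:163466379-163472629 and overlaps an antisense transcript. In CPM, Fitm2 had 32.5, 24.3, 32.1, 39.4 and 39.9 in MCD replicates 1 to 5, 34.0, 52.4, 50.2, 33.5 and 37.6 in HFD replicates 1 to 5 and 28.7, 28.8, 25.6, 17.2 and 23.7 in BD replicates 1 to 5. Fitm2 averaged 33.6 ± 6.40 CPM in MCD, 41.5 ± 9.09 in HFD and 24.8 ± 4.76 in BD (SD, n = 5). All HFD libraries lay above all BD libraries, and the MCD libraries overlapped with both. Fitm2 rose by 0.74 ± 0.17 in HFD against BD (log2, SE, adjusted p = 0.0105), a call kept in each of the 25 alternatives (0.64 to 0.82). In MCD against BD it stood at 0.45 ± 0.17 (adjusted p = 0.0638, and 0.0203 to 0.330 over the alternatives, with 5 of 25 past the threshold, among them DESeq2 at 0.0445). In MCD against HFD the log2 difference was -0.29 (95% interval -0.64 to 0.05, adjusted p = 0.326), so a call in HFD and none in MCD does not show that these 2 diets differ.

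Hsd17b13, a droplet enzyme of hepatocytes, was second to Plin2 in CPM in all diets and rose in MCD. It lies at chr5:103955440-103977410. In CPM, Hsd17b13 had 669.7, 703, 486, 635 and 564 in MCD replicates 1 to 5, 461, 716, 439, 405 and 461 in HFD replicates 1 to 5 and 404, 388, 396, 402 and 472 in BD replicates 1 to 5. Hsd17b13 averaged 612 ± 87.2 CPM in MCD, 496 ± 125 in HFD and 413 ± 33.7 in BD (SD, n = 5). All MCD libraries lay above all BD libraries, and in HFD replicate 2 alone exceeded the MCD range, with the other 4 between 405 and 461 CPM. Hsd17b13 rose by 0.57 ± 0.14 in MCD against BD (log2, SE, adjusted p = 0.00611), a call kept in each of the 25 alternatives (0.46 to 0.71). In HFD against BD it stood at 0.27 (95% interval -0.02 to 0.56, adjusted p = 0.296), with 0.11 without HFD replicate 2 (adjusted p = 0.672). The MCD against HFD value was 0.30 (95% interval 0.01 to 0.59, adjusted p = 0.229), and 0.48 without HFD replicate 2 (adjusted p = 0.00746). Per kilobase of transcript, Plin2 and Hsd17b13 averaged 441 ± 43.2 and 358 ± 51.03 CPM in MCD, 490.3 ± 56.6 and 291 ± 73.1 in HFD, and 242 ± 34.2 and 242 ± 19.8 in BD (SD, n = 5).

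**Figure D4:**
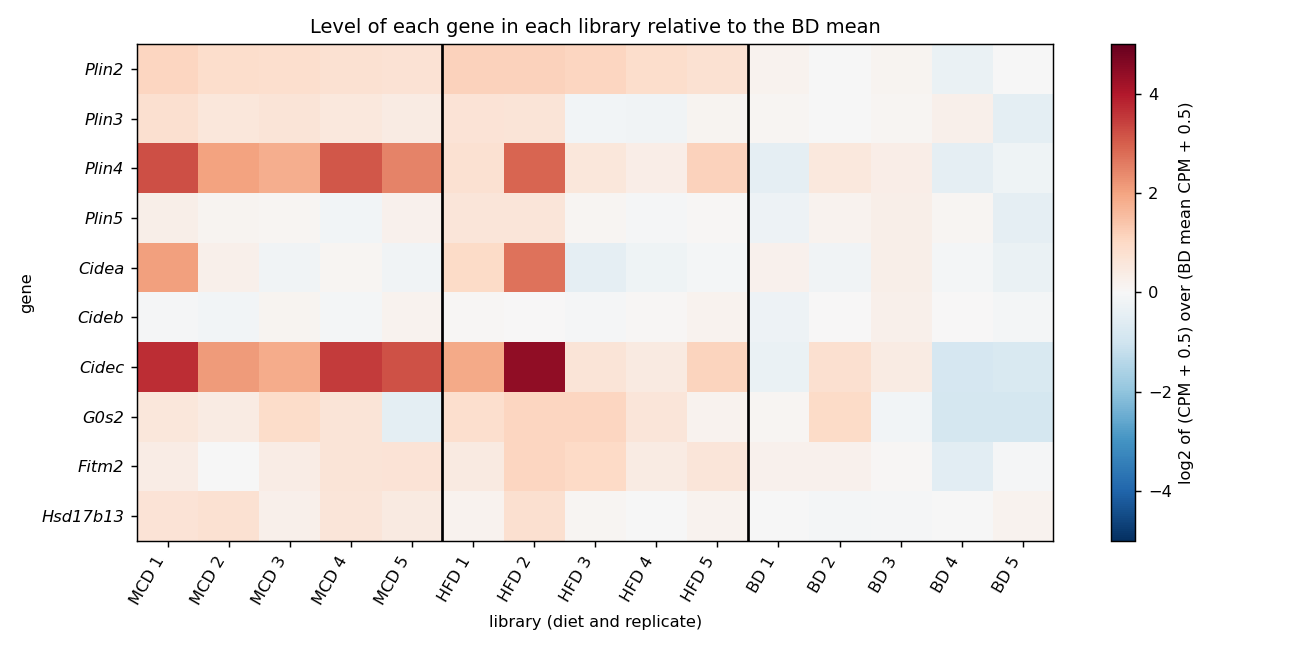
Level of each of the 10 genes (rows) in each library (columns, MCD, HFD, BD) as log2 of CPM + 0.5 over the BD mean + 0.5, red above and blue below the BD mean. Plin4 and Cidec are darkest in MCD replicates 1, 4 and 5 and in HFD replicate 2, and Plin2 is evenly red over all MCD and HFD libraries.

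HFD replicate 2 held 4.65 times the mean of the other HFD libraries for Plin4, 10.5 times for Cidec and 1.62 times for Hsd17b13. It held 1.14 times that mean for Plin2 and 0.975 times for Cideb. For Cidea the ratio was 14.8, on 42 counts. The effect on the comparisons was largest for Cidec and Plin4, as the plot with and without that library shows.

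**Figure D5:**
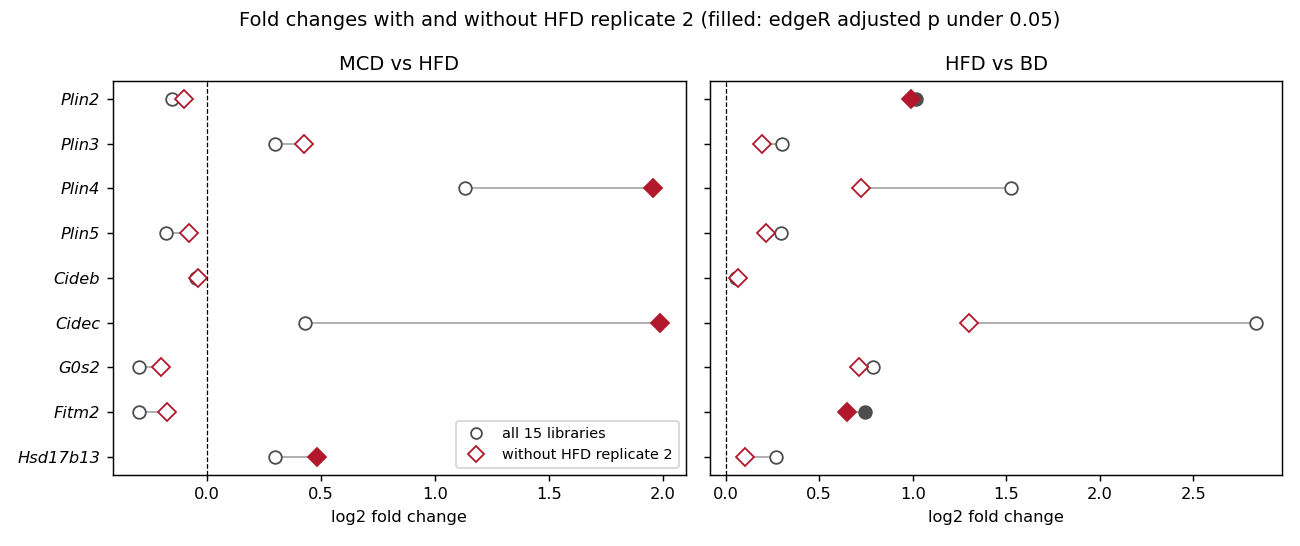
Log2 fold changes (x axis) of the 9 tested genes (y axis) in MCD against HFD and HFD against BD, over all 15 libraries (circles) and without HFD replicate 2 (diamonds), filled where edgeR's adjusted p is under 0.05. Without that library Plin4, Cidec and Hsd17b13 move to 1.96, 1.99 and 0.48 in MCD against HFD, and Plin2 stays at about 1 in HFD against BD. The library held the highest HFD values of Plin4, Cidec and Hsd17b13 and was left out with those values known.

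Markers of some other cell types also differed between the diets. In MCD against BD, 10 of 10 macrophage markers and 8 of 9 markers of stellate cells and fibroblasts rose (12.8% of all genes were called higher). In HFD against BD, 3 macrophage markers rose (3.65% of all genes were called higher). There 9 of 10 were higher at an unadjusted p under 0.05 (20.2% of all genes had such a p in either direction). DESeq2 called 5 of them, and the median log2 fold change of the list was 0.81. Of the stellate and fibroblast markers edgeR called 0 there, DESeq2 1 and limma-voom 0, with 4 at an unadjusted p under 0.05. Between MCD and HFD, 2 macrophage and 4 stellate and fibroblast markers rose (3.15% of all genes were called in either direction). The summed macrophage markers were 512 to 674 CPM in MCD, 356 to 544 in HFD and 227 to 409 in BD, and the summed stellate and fibroblast markers 537 to 884 CPM in MCD, 389 to 527 in HFD and 304 to 402 in BD. HFD replicate 2 had the highest HFD sum of macrophage markers (544 CPM, with 356 to 478 in the other HFD libraries). The same held for stellate and fibroblast markers (527 CPM, with 389 to 423) and cholangiocyte markers (193 CPM, with 58.8 to 85.3). Of the 193 CPM, Spp1 alone made up 182 CPM. It held too for the adipocyte list (4463 CPM, with 3503 to 4420) and neutrophil markers (1.70 CPM, with 0.675 to 1.42). That library had the lowest HFD levels of Alas2 and Cela1, the only red cell and pancreas markers with counts. Its sums of the remaining lists lay among those of the others. The part of any of these cell types in the levels of Plin2, Plin3, Plin4 and Cidec was not tested. Of the 10 adipocyte markers, Lep and Ucp1 had 0 counts over all 15 libraries, Plin1 1, Adipoq 3, Retn 3 and Adig 14. Cfd (adipsin) had 715 counts, with 1.01 to 6.72 CPM in MCD, 0.0965 to 18.6 in HFD and 0 to 1.55 in BD, and was not called (log2 2.40 in MCD and 3.03 in HFD against BD, adjusted p = 0.138 and 0.124), and the part of fat tissue in the members' levels was not tested. The summed adipocyte list, 4284 to 6461 CPM in MCD, 3503 to 4463 in HFD and 5666 to 6575 in BD, was nearly all Car3, which hepatocytes express too, and 4 of its 10 genes were tested, of which Fabp4 rose in MCD against BD and Car3 fell in HFD against BD and rose in MCD against HFD. Of 6 endothelial markers, 3 rose in MCD against BD and 1 in MCD against HFD, and in HFD against BD edgeR, DESeq2 and limma-voom called 0, with 0 at an unadjusted p under 0.05. In MCD against BD, of the 4 cholangiocyte markers tested, Spp1 rose and Sox9 fell, and Sox9 fell also in HFD against BD. The 1 pancreatic marker tested, Cela1, fell in both comparisons with BD. The other pancreatic markers, Prss2, Cpa1 and Pnlip, had 0 counts over all 15 libraries. Of the markers of lymphocytes and red cells 1 each was tested and not called, and none of striated muscle or neutrophils passed the filter.

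Other genes of droplet biology were counted in 4 lists, against shares of all genes called in either direction of 21.4% in MCD against BD, 6.92% in HFD against BD and 3.15% in MCD against HFD. In MCD against BD, 3 of 18 further droplet proteins, 3 of 13 genes of lipolysis, 7 of 17 of synthesis and 7 of 19 transcription factors and targets were called, with list medians of -0.14, 0.02, 0.05 and 0.32 (log2, all genes -0.03). The counts in HFD against BD were 1, 4, 1 and 3, with medians of -0.06, 0.10, 0.13 and 0.32 (all genes -0.01). Mogat1 stands in the last 2 lists. Of 18 tested further droplet proteins, Hsd17b11 rose and Mettl7a1 and Faf2 fell in MCD against BD, and Mettl7a1 fell in HFD against BD. Between MCD and HFD, edgeR called 0 of these 18, DESeq2 1 and limma-voom 0, and 2 had an unadjusted edgeR p under 0.05. Of 13 genes of lipolysis and lipophagy, 2 rose (Mgll and Lpl) and 1 fell (Ces1d) in MCD against BD, 2 rose (Pnpla3 and Mgll) and 2 fell (Ces1d and Ces1g) in HFD against BD, and 2 rose (Ces1g and Lpl) and 1 fell (Abhd5) in MCD against HFD. Ces1d and Ces1g belong to a cluster of related carboxylesterase genes, and the part of misplaced reads in their counts was not tested. Mgll, which splits monoglyceride, rose in both comparisons, with 246 ± 34.6 CPM in MCD, 335 ± 42.7 in HFD and 127.5 ± 27.7 in BD (SD, n = 5, log2 0.95 and 1.39, adjusted p = 1.08e-04 and 2.98e-06). Pnpla3, a droplet lipase and transacylase, had 8.49 ± 7.54 CPM in MCD, 46.6 ± 23.8 in HFD (5.66 to 66.3) and 3.44 ± 3.19 in BD. It rose by 3.88 ± 0.87 in HFD against BD (log2, SE, adjusted p = 0.0174). That call ended without BD replicate 3 (adjusted p = 0.0522) and with limma-voom (adjusted p = 0.0680), and the value was 4.60 without BD replicate 4. Lpl, the lipase of lipoproteins, rose by 1.01 ± 0.25 in MCD against BD (adjusted p = 0.00935), a call that ended after thinning (adjusted p = 0.0578).

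Of 17 tested genes of triglyceride and sterol ester synthesis, 4 rose (Agpat9, Lpin2, Mogat1 and Soat1) and 3 fell (Agpat6, Agpat2 and Acsl1) in MCD against BD, Soat1 rose in HFD against BD, and Agpat2 and Acsl1 fell in MCD against HFD. Agpat9, an acyltransferase of glycerol phosphate, rose by 1.81 ± 0.40 in MCD against BD (log2, SE, adjusted p = 0.00483, and 1.02 under the multi-mapping covariate). Soat1, which esterifies cholesterol, had 7.79 ± 1.14 CPM in MCD, 5.43 ± 0.539 in HFD and 3.49 ± 0.864 in BD, and rose by 1.12 ± 0.17 in MCD and by 0.60 ± 0.18 in HFD against BD (adjusted p = 1.89e-04 and 0.0492). The MCD call of Soat1 ended after thinning (0.87, adjusted p = 0.266), and in HFD against BD limma-voom called 0 of the 17 genes, Soat1 included. Mogat1, which makes diglyceride, rose by 2.04 ± 0.68 in MCD against BD (adjusted p = 0.0430, and 0.0526 to 0.229 in the 10 alternatives that ended the call, among them leaving out MCD replicates 1 or 4 or any BD library).

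Of 19 transcription factors of droplet genes and their liver targets, 6 rose and 1 fell (Mlxipl) in MCD against BD and 3 rose in HFD against BD (Ppara, Vnn1 and Cpt1a). Between MCD and HFD, edgeR called 0, DESeq2 1 and limma-voom 0, and 6 had an unadjusted edgeR p under 0.05. Ppara, the fatty acid receptor, rose in both, with 441 ± 86.3 CPM in MCD, 558 ± 43.0 in HFD and 286 ± 50.9 in BD (SD, n = 5, log2 0.62 and 0.96, adjusted p = 0.00347 and 2.42e-04). Pparg had 24.3 ± 6.85 CPM in MCD, 16.5 ± 10.3 in HFD (9.71 to 34.6) and 12.995 ± 3.47 in BD. It was not called (log2 0.91 and 0.36, adjusted p = 0.0555 and 0.604). Vnn1, a pantetheinase and target of PPAR alpha, rose by 1.93 ± 0.25 in MCD and 1.75 ± 0.25 in HFD (log2, SE, adjusted p = 9.93e-05 and 4.18e-04). Cd36, a fatty acid carrier and target of PPAR gamma, rose by 1.90 ± 0.49 in MCD against BD (adjusted p = 0.0151), a call that ended under the multi-mapping covariate (1.19, adjusted p = 0.0638). In HFD against BD it stood at 1.19 ± 0.49 (adjusted p = 0.186), with 58.2 to 441 CPM over the HFD libraries. Cpt1a, the gate of mitochondrial fatty acid oxidation, rose by 0.81 ± 0.13 in MCD and 1.04 ± 0.13 in HFD (adjusted p = 2.32e-04 and 4.25e-05).

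For the 3 genes with the largest range of diet means, the genes of most similar pattern were sought among the genes tested. Predicted genes (Gm and Rik symbols) were left out. The measure was the root mean square difference of log2 CPM, each gene centred on its own mean over the 15 libraries. Nearest to Cidec was Plin4 (0.57), then the lipid carrier gene Osbpl3 (0.59) and Lcn2, a lipocalin of the acute phase (0.65), where Cidec itself varied by 1.69 (SD, log2). Nearest to Plin4 were the collagen gene Col1a1 (0.38), Ifi27l2b (0.39) and Wee1 (0.43), where Plin4 varied by 1.26. Nearest to Plin2 were Nceh1, a hydrolase of cholesterol esters (0.18), Ten1 (0.19) and Gpr146 (0.20), where Plin2 varied by 0.48. Lcn2 had 182 CPM in HFD replicate 2 and 4.44 to 13.1 in the other HFD libraries, and Col1a1 had 26.5 CPM there and 5.50 to 10.5 in the others, whereas Nceh1 had 80.4 CPM there and 64.7 to 72.4 in the others. This is a description over shared libraries and says nothing of shared control.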

How the data were processed

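The deposited values are whole-number read counts per gene symbol, 1 table for each of 15 libraries (5 per diet), from polyA RNA and a kit that keeps the strand, per the labels' protocols. Per the submitters' processing notes, the tools were Trimmomatic, TopHat2 (2.0.13), HTSeq and DESeq2, on GRCm38/mm10. No source used here gives the annotation, the strand option or the mode of counting. The 5 closing rows without a gene stayed out: reads outside genes made up 12.7% to 17.0% and ambiguous reads 0.567% to 0.841% of uniquely placed reads. Multiply placed alignments, 1.15 to 2.80 for each count in a gene, entered no gene. That rate was 1.19 to 1.66 in MCD, 1.15 to 2.53 in HFD and 1.49 to 2.80 in BD, with the lowest value in HFD replicate 2.

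The test was that of edgeR 4.0.16 under R 4.3.3 (TMM scaling, filterByExpr with minimum count 10 and minimum total 15, which left 12193 genes, robust quasi-likelihood fit over 15 libraries, two-sided F tests, Benjamini-Hochberg over all genes). CPM are scaled with the TMM factors, and log2 CPM has a prior count of 2. The SE of a log2 fold change follows from its size and the F statistic. Replicate numbers follow the order of deposit. All 30 replicate pairs differed beyond counting noise, with chi-square at 7.33 to 65.0 times its degrees of freedom. The procedure was tested on simulated counts. Alternatives were DESeq2 1.42.0, limma-voom (limma 3.58.1), other scalings, filters and fits, thinning, the rate of multiply placed reads as covariate, and leaving out libraries. Thinning was a single random draw, so the spread between draws was not measured. The same alternatives for other droplet genes were added after seeing the data. Members, gene lists and doubtful libraries were chosen with earlier results of these data known. Named genes are the 10 members, Plin1, genes of the 4 droplet lists called with an absolute log2 fold change of at least 1, and the 3 most similar genes of each of 3 members. Other names, such as Ppara, Pparg and those behind small counts, were chosen after their values were seen. Gene positions and lengths are from GENCODE M21 (GRCm38), the longest coding transcript being used per gene. Markers covered hepatocytes, adipocytes, macrophages, stellate cells and fibroblasts, cholangiocytes, endothelium, striated muscle, lymphocytes, neutrophils, red cells and pancreas.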

Additional observations from a re-analysis of the deposited data

Results flagged for a closer look

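Of 30 sets of 5 libraries (10 genes in 3 diets), 6 held a library far from the other 4, by its gap to the nearest library over the whole range. Chance flags about 1 in 20 sets of independent, normally distributed values. The 30 sets share their 15 libraries, so the 6 cannot be judged by that rate. In HFD, replicate 2 stood apart in 4 genes. Cidec was 68.1 CPM there and 3.81 to 11.3 in the other HFD libraries, Plin4 was 91.6 CPM and 14.8 to 26.5, Cidea was 3.96 CPM and 0 to 0.843, and Hsd17b13 was 716 CPM and 405 to 461. In MCD, replicate 1 stood apart in Cidea, with 2.32 CPM and 0.101 to 0.311 in the other MCD libraries. In BD, replicate 5 stood apart in Hsd17b13, with 472 CPM and 388 to 404 in the other BD libraries.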

How the results depend on the processing

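Of 675 recomputed fold changes of the 9 tested genes, 644 kept their direction and their side of the threshold, 17 newly passed, 3 no longer passed and 11 changed sign. The sign changes were of uncalled values: Cideb in MCD against BD (-0.0019 with limma-voom, -0.0265 under the multi-mapping covariate, -0.0233 after thinning, -0.0192 without HFD replicate 2 and MCD replicate 3 together, and -0.0242 to 0.0822 over single libraries left out), Cideb in MCD against HFD (0.0321 without normalization factors), Cidec in MCD against HFD (-0.16 with the covariate) and Plin5 in MCD against BD (-0.12 with the covariate). Members called in HFD against BD were 2, and 4 with DESeq2 (2 to 3 with 1 library left out). In MCD against BD they were 5 (4 to 6). In MCD against HFD they were 0, and 3 without HFD replicate 2 and MCD replicate 3 together (0 to 3). Over all genes, 844 were called in HFD against BD (569 to 974 with 1 library left out, 404 after thinning) and 2610 in MCD against BD (1938 to 2805, and 1059 after thinning). In MCD against HFD 384 were called (74 to 1248 with 1 library left out, being 74 to 220 without MCD replicate 1, 4 or 5 or HFD replicate 1, 3, 4 or 5, and 1248 without HFD replicate 2), with 701 by DESeq2, 224 in a fit on these diets alone, 82 with the covariate, 43 after thinning and 1365 without HFD replicate 2 and MCD replicate 3 together. Thinning leaves fewer counts per gene by construction, and for the other settings the cause was not tested. Without normalization factors the median log2 fold change of all genes in MCD against BD moved to 0.12, and the share of higher calls to 81.8%, against 59.7% with TMM factors (66.4% and 52.7% in HFD against BD, 86.0% and 70.6% in MCD against HFD). No paired analysis was possible because replicate numbers only follow the order of deposit. Depth limits Cidea in all diets and Cidec in BD.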
